A study of Mus musculus with 28 samples.

Results

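A set of 9 genes of stratified squamous epithelium was followed through all 28 libraries of a study that turned mouse fibroblasts into endoderm progenitors and hepatocyte-like cells with chemicals. They were Sprr1a, Sprr1b, Sprr2b, Ivl, Ly6d, Trp63, Krt5, Krt14 and Sfn, taken by name from 31673 genes in the deposited tables, and all 9 were found. All are squamous markers, and several were chosen by their measured TPM and counts, which were higher in the hepatocyte-like cells made from neonatal fibroblasts. Their values in those cells are therefore given as a description, without a test. Tests were run in comparisons that did not involve those cells. All 9 passed the filter on low counts over the whole table, but Sprr2b, Trp63 and Krt5 passed it only through those cells, and 6 passed without them. Test values of these 3 genes are therefore given as descriptions that support nothing.

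RNA was sequenced from 9 kinds of cell. Fibroblasts of E13.5 embryos (MEF) gave 3 libraries and fibroblasts of neonatal dermis (MNF) gave 2, both at passage 2. Endoderm progenitors induced from them with chemicals (ciEPC) gave 10 libraries where MEF were the source (MEF_ciEPC) and 2, at passages 2 and 3, where MNF were (MNF_ciEPC). The MEF_ciEPC libraries belonged to 2 numbered series, one with 6 libraries at passages 2, 3, 4, 6, 10 and 22 and one with 4 libraries at passages 1, 5, 10 and 22. Hepatocyte-like cells (ciHep) were then made from ciEPC of passage 3 to 10, and 3 libraries were of MEF descent (MEF_ciHep) and 2 of MNF descent (MNF_ciHep). For reference there were primary hepatocytes isolated from adult liver (pHep, 2 libraries, passage 0). There were also embryonic stem cells of the OG2 line at passage 5 (ESC, 2 libraries). The last group was endoderm progenitors derived from embryonic stem cells of passage 10 to 15 (ESC_EPC, 2 libraries). Every group carried the Oct4-GFP transgenic allele of CBA/CaJ X C57BL/6J mice. MEF, MEF_ciEPC, MEF_ciHep, ESC and ESC_EPC had a 129Sv/Jae cross in addition, which the labels do not give for MNF, MNF_ciEPC, MNF_ciHep and pHep. Origin and strain cannot be told apart between the MEF and MNF lines. The labels of MNF_ciEPC conflict, because MEF stands in the source name but MNF in the title and cell type, which were followed. No label says that libraries of a group came from separate cultures or animals, so the p-values measure only the spread between libraries, which may be technical.

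Stratified squamous epithelium renews itself from a basal layer and builds a protective surface. Basal cells express the transcription factor p63, the product of Trp63, which maintains the lineage, and the paired keratins Krt5 and Krt14, which form their intermediate filaments. As cells move up they make precursors of the cornified envelope, among them involucrin, the product of Ivl, and the small proline-rich proteins of the Sprr genes, which transglutaminases crosslink under the plasma membrane. Ly6d encodes a membrane-anchored protein of the Ly6 family found on keratinocytes. Sfn encodes 14-3-3 sigma, a binding protein abundant in stratified epithelium and a target of p53. Sprr1a is also known to be induced outside skin by tissue injury.

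The 4 envelope genes of the set lie together on chromosome 3, and their promoters are shown because 4 of the 9 members lie at this locus. In GRCm38, with gene limits from GENCODE M21, Sprr2b spans chr3:92316620-92318085 on the plus strand, Sprr1b chr3:92436809-92438789, Sprr1a chr3:92483952-92485895 and Ivl chr3:92570902-92573735, the last 3 on the minus strand. The sequences below come from RefSeq promoters of GRCm38.p6, end at the base before the gene's first annotated base, and run 5′ to 3′ on the gene's strand. They cover chr3:92485896-92486131 for Sprr1a, chr3:92438790-92439029 for Sprr1b, chr3:92316455-92316619 for Sprr2b and chr3:92573736-92573985 for Ivl. Capitals mark matches to TGANTCA, the palindromic core that AP-1 (dimers of Fos and Jun proteins) is known to bind.
Sprr1a: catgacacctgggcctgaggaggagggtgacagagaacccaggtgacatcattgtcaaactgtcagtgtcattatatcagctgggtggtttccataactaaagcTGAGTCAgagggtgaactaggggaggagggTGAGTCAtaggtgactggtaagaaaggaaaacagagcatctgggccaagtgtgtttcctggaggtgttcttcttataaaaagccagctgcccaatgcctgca
Sprr1b: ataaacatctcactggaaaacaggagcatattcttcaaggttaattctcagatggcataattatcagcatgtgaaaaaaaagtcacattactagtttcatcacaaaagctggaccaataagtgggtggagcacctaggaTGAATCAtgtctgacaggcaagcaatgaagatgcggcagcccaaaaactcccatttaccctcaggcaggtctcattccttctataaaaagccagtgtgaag
Sprr2b: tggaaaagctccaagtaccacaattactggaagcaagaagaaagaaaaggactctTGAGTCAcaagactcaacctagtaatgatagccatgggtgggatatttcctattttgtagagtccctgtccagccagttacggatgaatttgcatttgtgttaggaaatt
Ivl: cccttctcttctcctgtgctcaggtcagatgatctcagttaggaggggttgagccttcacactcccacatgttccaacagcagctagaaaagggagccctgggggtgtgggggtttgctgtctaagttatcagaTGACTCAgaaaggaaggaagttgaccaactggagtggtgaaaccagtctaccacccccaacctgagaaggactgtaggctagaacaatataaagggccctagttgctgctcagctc
Sprr1a held 2 matches and the other 3 promoters held 1 each, with TGAGTCA in Sprr1a and Sprr2b, TGAATCA in Sprr1b and TGACTCA in Ivl. The motif reads the same on both strands apart from its centre, so 1 pass covers both. Promoters of Krt5 and Sfn, the other members with a usable entry, held no match in the 250 bases before their start. Over the whole RefSeq table, 7.82% of 27025 genes had at least 1 match in that window and 0.38% had 2 or more. The motif was chosen with the results of these data known, and a match describes letters only. The other members lie apart, Ly6d at chr15:74762056-74763620, Krt5 at chr15:101707070-101712898 and Krt14 at chr11:100203162-100207548, all on the minus strand. Trp63 spans chr16:25683763-25892102 on the plus strand, and Sfn chr4:133600556-133602168 on the minus strand.

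Several libraries did not look like their group. Libraries held 1439670 to 6133147 estimated counts. The library of MEF_ciEPC series 2 passage 22 had 1908 TPM (a transcript level scaled for gene length and for depth) of the stem cell gene Pou5f1, and its 4 pluripotency markers summed to 3315 TPM against 2742 to 3009 in ESC and 2.13 to 9.48 in the other 9 MEF_ciEPC libraries. MEF_ciEPC series 1 passage 2 had 700.2 TPM of 8 fibroblast markers in sum, the most in its group. MNF_ciHep went against their label as hepatocyte-like: 7 measured hepatocyte markers summed to 29.4 and 114 TPM, with Serpina1a at 0 and Alb at 0 and 0.56, against 11740 to 25196 TPM in MEF_ciHep and 16483 to 27059 in pHep. Fibroblast markers summed to 1373 and 3487 TPM in MNF_ciHep and 32.6 to 46.9 in MEF_ciHep. The part of any of these in the levels below was not tested. The length implied by the deposited effective lengths was 49.5 to 50.6 bases in pHep, MEF_ciEPC and the ciHeps. It was 74.3 to 74.5 in MEF, MNF, MNF_ciEPC and ESC, and 186.6 and 195.7 in ESC_EPC. Whether it is a length of reads or of fragments cannot be told from these values. In comparisons across those sets it cannot be told apart from the group. In these bulk samples, fewer cells of a type and less RNA per cell cannot be told apart.

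**Figure D1:**
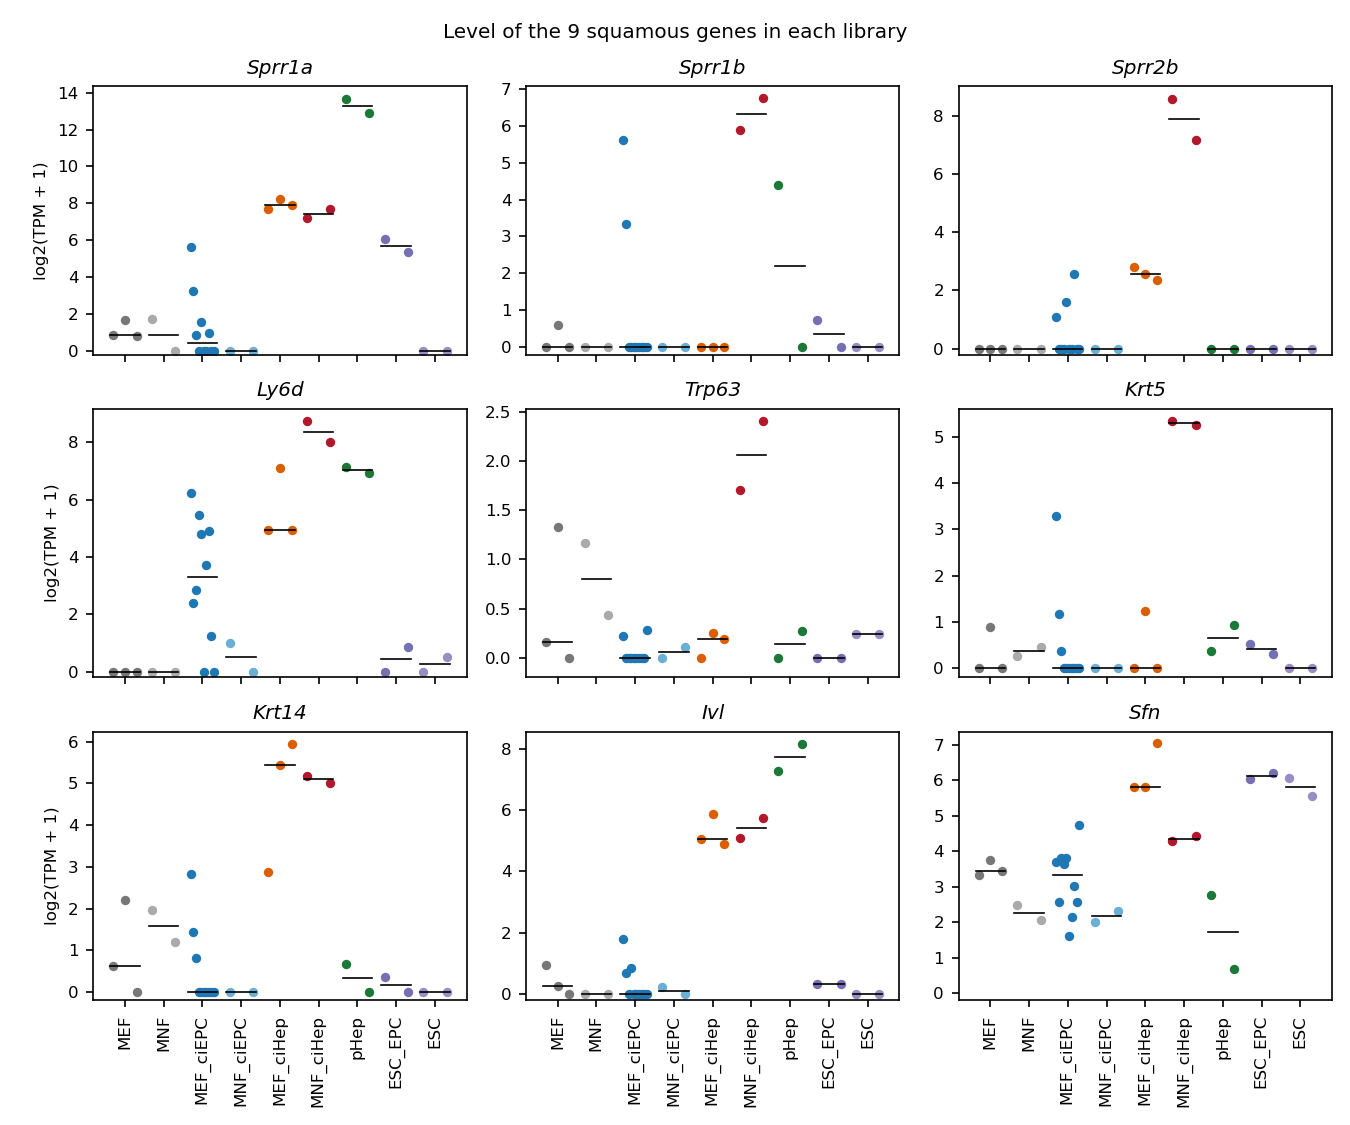
Level of each of the 9 genes, as log2(TPM + 1) on the vertical axis with its own range per gene, in every library (points) of the 9 groups, with the group median as a line. MNF_ciHep are above all other libraries for Sprr1b, Sprr2b, Ly6d, Trp63 and Krt5, while pHep are highest for Sprr1a and Ivl.

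Of the 4 envelope members, Sprr1a reached the highest level, and its highest levels were in primary hepatocytes, not in the ciHeps. It reached 13106 and 7737 TPM in pHep, which made it the 5th and 4th most abundant gene of those libraries. It stood at 203, 304 and 238 TPM in MEF_ciHep and at 144.4 and 206 TPM in MNF_ciHep, so the ciHep groups overlapped on this scale. ESC_EPC held 66.2 and 39.6 TPM. Fibroblasts of both kinds were at 0 to 2.29 TPM, MNF_ciEPC and ESC at 0, and MEF_ciEPC ranged from 0 to 48.1 TPM with a median of 0.41. The order was thus pHep, the ciHeps, ESC_EPC and then all others, of which 1 MEF_ciEPC library overlapped ESC_EPC.

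Sprr1b, which codes for a similar envelope protein, did not follow Sprr1a. It was at 57.9 and 105.7 TPM in MNF_ciHep and at 0 in all 3 MEF_ciHep libraries. In pHep it was 19.9 TPM in one library and 0 in the other. Among MEF_ciEPC it was seen at 47.6 and 9.12 TPM in series 1 at passages 2 and 3 and was 0 in the other 8 libraries. Outside these groups the highest value was 0.66 TPM.

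Sprr2b, another crosslinked envelope precursor, was at 383.8 and 143.1 TPM in MNF_ciHep. MEF_ciHep held 6.00, 4.87 and 4.12 TPM, far below MNF_ciHep and with no overlap. MEF_ciEPC reached 4.92 TPM at most and were 0 in 7 of 10 libraries, and all libraries of MEF, MNF, MNF_ciEPC, pHep, ESC_EPC and ESC were at 0. Of its 50-base stretches, 14.1% also occur in Sprr2a1, so a part of its reads could have been split between paralogs by the authors' counting.

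Ivl, the classic suprabasal envelope gene, resembled Sprr1a. It was at 155.2 and 281.7 TPM in pHep, at 32.2, 57.9 and 29.1 TPM in MEF_ciHep and at 32.8 and 52.0 TPM in MNF_ciHep, and the ciHep groups overlapped. Every other library was under 1 TPM except MEF_ciEPC series 1 passage 2, at 2.49 TPM.

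Of the basal genes, Trp63 and Krt5 were higher in both MNF_ciHep libraries than in any MEF_ciHep library, and Krt14 overlapped. Trp63 was low everywhere, and highest at 2.26 and 4.32 TPM in MNF_ciHep, which rest on 35 counts in both libraries together. It was 1.24 and 0.35 TPM in MNF, 0.12, 1.51 and 0 in MEF, and at most 0.22 TPM in every other library. Krt5 was at 39.3 and 37.1 TPM in MNF_ciHep and at 0, 1.36 and 0 TPM in MEF_ciHep. No other library passed 1.26 TPM except MEF_ciEPC series 1 passage 2, at 8.71 TPM.

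Krt14, the type I partner of Krt5, was present in both ciHep groups. It was at 35.3 and 31.5 TPM in MNF_ciHep and at 6.37, 42.5 and 60.4 TPM in MEF_ciHep, with overlap. Krt5 and Krt14 were thus at near equal levels per length in MNF_ciHep, while MEF_ciHep had Krt14 with little or no Krt5. MEF and MNF held at most 3.6 TPM of Krt14 and pHep, ESC_EPC and ESC at most 0.60. Since 12.2% of the 50-base stretches of Krt5 and 13.9% of those of Krt14 occur in other genes, mostly Krt6a and Krt16, small amounts of either are uncertain.

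Ly6d was highest in MNF_ciHep, at 424.6 and 255.1 TPM. Primary hepatocytes held 140.5 and 122.6 TPM and MEF_ciHep 30.0, 135.5 and 29.4 TPM, so those 2 groups overlapped. MEF_ciEPC spread from 0 to 73.5 TPM with a median of 9.27, and 8 of 10 libraries were above 0. MEF and MNF were at 0 in all 5 libraries, and MNF_ciEPC, ESC_EPC and ESC at no more than 1 TPM.

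Sfn had a pattern of its own. It was at 54.8, 54.9 and 131.2 TPM in MEF_ciHep, 64.8 and 72.7 in ESC_EPC and 66.2 and 46.0 in ESC, and these 3 groups overlapped. MNF_ciHep held 18.4 and 20.7 TPM, below all of them. MEF were at 9, 12.6 and 9.95 TPM, MNF at 4.63 and 3.14, MNF_ciEPC at 3.05 and 3.98 and pHep at 5.79 and 0.62. It was the one member above 2 TPM in every MEF_ciEPC library, from 2.07 to 25.7 TPM, and its highest value there was in the stem-like series 2 passage 22 library.

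Only the 2 MNF_ciHep libraries had all 9 members above 1 TPM. MEF_ciHep had 6, 7 and 6 of the 9 above 1 TPM, pHep 5 and 3, and MEF_ciEPC series 1 passage 2 had 8. The summed level of the 9 was 1139 and 856 TPM in MNF_ciHep, 333 to 601 in MEF_ciHep and 13429 and 8143 in pHep, where Sprr1a made up most of it. MNF_ciEPC summed to 4.23 and 4.06 TPM, the lowest of any group by its higher library.

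From MNF_ciEPC to MNF_ciHep each member was higher without overlap of the libraries, a separation that says little with 2 libraries per group. Because members were picked for this rise, it is a description with no test, and nothing is read from the 19.5% of 16061 tested genes that were called higher in this comparison. Calls required both an adjusted p below 0.05 (Benjamini-Hochberg) and a 2-fold or larger change, and 30.3% of genes met them in either direction. In MNF_ciEPC, 5 members had no counts, so their folds are bounds that put the whole group at 3 counts: Sprr2b was at least 461-fold higher, Sprr1a at least 262-fold, Krt5 at least 172-fold, Sprr1b at least 121-fold and Krt14 at least 114-fold. Ly6d was 796-fold higher, Ivl 460-fold and Trp63 84.3-fold. Those ratios rest on 1 or 2 counts in MNF_ciEPC and have 95% counting intervals of 219.5 to 6586, 81.6 to 18260 and 14.2 to 3423. Sfn was 6.26-fold higher.

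Set against the fibroblasts they came from, MNF_ciHep held 154-fold more Sprr1a, 18.7-fold more Krt14, 6.25-fold more Trp63 and 5.17-fold more Sfn, as a description in a comparison with 27.7% of genes called in all and 16.2% called higher. Sprr1b, Sprr2b, Ly6d and Ivl had no counts in MNF and were at least 96.3-fold, 366-fold, 421-fold and 122-fold higher. Krt5 was 136-fold higher on 3 counts in MNF (counting interval 46.1 to 667).

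The ciHep groups differed most in Sprr1b, Krt5, Sprr2b and Trp63. In MNF_ciHep against MEF_ciHep, where 33.9% of genes were called, 17.8% higher and 16.1% lower, Sprr1b was at least 109.7-fold higher, Krt5 57.4-fold, Sprr2b 48.4-fold, Trp63 38.1-fold (counting interval 9.80 to 327) and Ly6d 4.79-fold. None of these overlapped, which says little for groups of 2 and 3 libraries. Sfn was 4.38-fold lower in MNF_ciHep without overlap, and Sprr1a 1.52-fold lower. Krt14 differed 1.14-fold and Ivl 1.02-fold with overlapping libraries. These values too are described without a test.

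**Figure D2:**
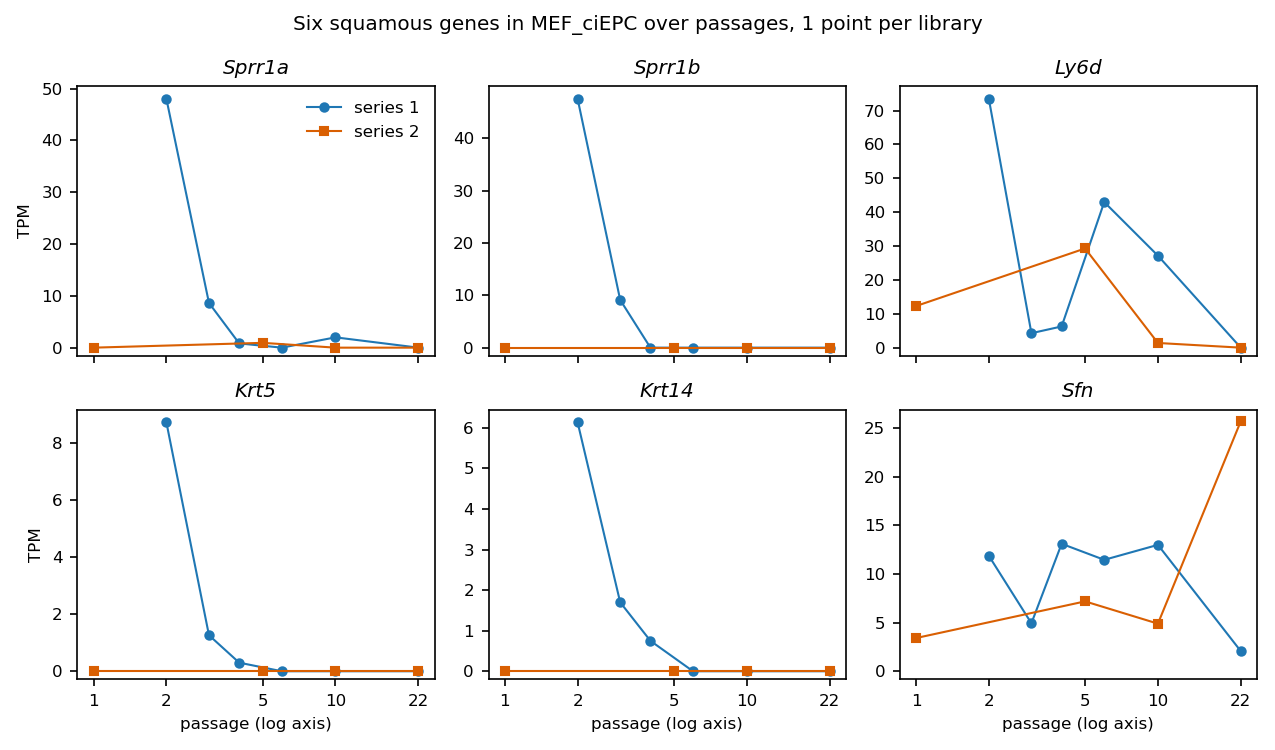
TPM of 6 members (vertical axis) in the 10 MEF_ciEPC libraries against passage (horizontal, log axis), with series 1 as circles and series 2 as squares. Sprr1a, Sprr1b, Krt5 and Krt14 are highest in series 1 at passage 2, and Sfn is highest in series 2 at passage 22.

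In MEF_ciEPC the members differed between series and passages. In series 1, Sprr1a went from 48.1 TPM at passage 2 through 8.63 and 0.82 at passages 3 and 4 to 0 at passage 6. It was 1.99 TPM at passage 10 and 0 at passage 22. Krt5 went from 8.71 through 1.26 and 0.30 to 0, and Krt14 from 6.14 through 1.70 and 0.75 to 0, over passages 2, 3, 4 and 6. Each passage is 1 library, so these sequences have no replicate. Series 2 at passage 1, its earliest library, had no Sprr1a, Sprr1b, Krt5 or Krt14. Ly6d was 0 at passage 22 in both series and 73.5, 43.0 and 29.3 TPM at its peaks in series 1 passages 2 and 6 and series 2 passage 5. Keratinocyte markers other than the members summed to 33.3 TPM in series 1 passage 2 and 3.39 to 37.6 in the other 9 libraries, with Flg at 0 in all 10. The 8 fibroblast markers, whose sum was also highest in that library, were all at 1 TPM or more there, and their part in the member levels was not tested.

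Against MEF, only Ly6d rose in MEF_ciEPC, with the libraries of each series summed to 1 sample. It was at least 22.8-fold higher (adjusted p = 0.00143, edgeR's quasi-likelihood test with Benjamini-Hochberg adjustment), where 33.4% of all 16061 genes tested were called and 17.6% were called higher. The other 8 members did not pass. Sprr1a had a log2 fold change of 1.92 ± 1.10 (SE, adjusted p = 0.170), and without series 2 it was 2.70 with an adjusted p of 0.0138. Sprr1b likewise passed only without series 2 (log2 fold change 4.95, adjusted p = 0.0317). Trp63 had 2 counts in MEF_ciEPC and 9 in MEF (adjusted p = 0.0502), 8 of them in MEF replicate 2, and it passed the filter only through MNF_ciHep. Sprr1a was 0.20 (adjusted p = 0.891) without series 1 passage 2.

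**Figure D3:**
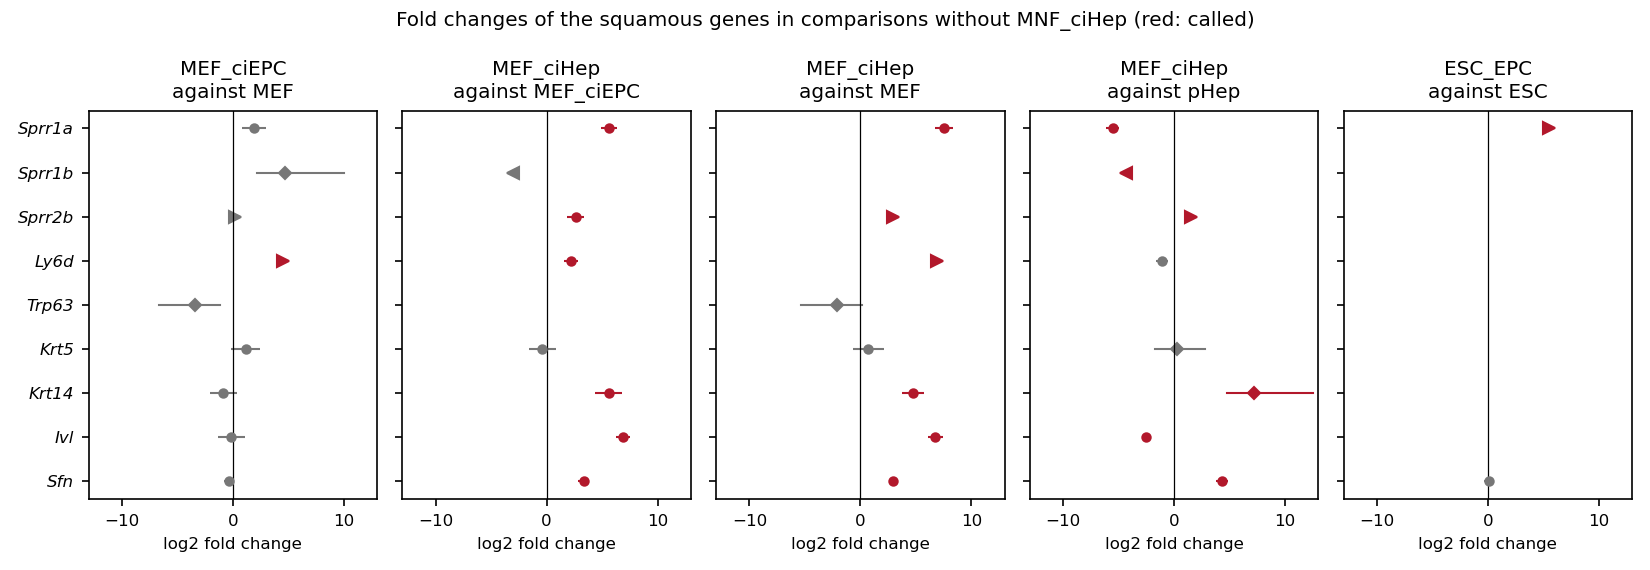
Log2 fold change (horizontal axis) of the 9 members in the 5 comparisons that do not involve MNF_ciHep. Circles are fitted values with their SE, triangles are bounds where one group had no counts, diamonds are ratios with 95% counting intervals, red marks called genes, and members at or under 3 counts in both groups have no mark. Sprr2b, Trp63 and Krt5 passed the filter only through MNF_ciHep. Sprr1a, Sprr2b, Ly6d, Krt14, Ivl and Sfn lie to the right in MEF_ciHep against MEF_ciEPC and against MEF.

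In the step from MEF_ciEPC to MEF_ciHep, 5 members rose and none fell among the 6 that passed the filter without MNF_ciHep, in a comparison with 32.7% of genes called, 17.8% higher and 14.8% lower. The members were picked for MNF_ciHep, but with earlier results of these libraries known. Ivl had the largest change, a log2 fold change of 6.89 ± 0.65 (SE), or 119-fold (adjusted p = 2.84e-06). Sprr1a rose 49.9-fold (5.64 ± 0.73 on the log2 scale, adjusted p = 3.59e-05), Krt14 48.0-fold (5.59 ± 1.18, adjusted p = 0.00164) and Sfn 10.1-fold (3.33 ± 0.45, adjusted p = 2.95e-05). All 3 MEF_ciHep libraries exceeded both summed series for these 4 genes, which says little for so few samples. Ly6d rose 4.53-fold (adjusted p = 0.0117). Sprr2b, admitted to the test through MNF_ciHep, was 6.16-fold higher (adjusted p = 0.0184).

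The same 4 strong members were called when any 1 sample was left out, but the Ly6d and Sprr2b calls each rested on few samples. Without MEF_ciHep replicate 2, which held 135.5 TPM of Ly6d, its log2 fold change was 1.04 (adjusted p = 0.0852), and without MEF_ciEPC series 2 it was 1.87 (adjusted p = 0.0769). Sprr2b, at 22 counts in MEF_ciHep and 8 in MEF_ciEPC, lost its call without series 1 (adjusted p = 0.141). Sprr1b had 60 counts in MEF_ciEPC, all from 2 early libraries, and none in MEF_ciHep, and was not called (adjusted p = 0.0825). It was called lower without a filter on low counts (adjusted p = 0.0270) and without series 2 (adjusted p = 0.0219). Krt5 did not pass (adjusted p = 0.813), and Trp63 had 2 counts in each group. Without the series 1 passage 2 library the fitted rises of Sprr1a, Krt14 and Ivl were 7.36, 6.89 and 8.11 on the log2 scale, with few counts left in MEF_ciEPC. Without all of series 1, MEF_ciEPC held 1 count of Sprr1a and 0 of Krt14 and of Ivl. The fitted values of 9.56, 10.1 and 10.4 are then set by the near absence of counts and do not measure a size.

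Against MEF, which shares its MEF_ciHep libraries with the comparison above, the same 5 members were higher in MEF_ciHep, where 42.2% of genes were called and 22.9% were called higher. Sprr1a was 189-fold higher (adjusted p = 3.21e-06), Ivl 109-fold (adjusted p = 1.09e-06), Krt14 26.7-fold (adjusted p = 0.00128) and Sfn 7.88-fold (adjusted p = 1.09e-05). Ly6d was at least 124-fold higher (adjusted p = 2.58e-05). Sprr2b, again admitted through MNF_ciHep, was at least 7.64-fold higher (adjusted p = 0.00333). Sprr1b, Trp63 and Krt5 did not pass, with 0 and 1, 2 and 9, and 9 and 5 counts in MEF_ciHep and MEF.

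Primary hepatocytes and MEF_ciHep divided the members. Of the 6 members that passed the filter without MNF_ciHep, 5 were called, in a comparison that called 25.9% of genes, 15.1% higher and 10.8% lower in MEF_ciHep. Sprr1a was 45.8-fold lower in MEF_ciHep (adjusted p = 1.02e-05) and Ivl 5.64-fold lower (adjusted p = 3.24e-04). Sfn was 20.3-fold higher (adjusted p = 2.38e-05) and Krt14 150-fold higher (counting interval 26.7 to 5932 on 1 count in pHep, adjusted p = 0.00521). Ly6d was 2.12-fold lower and did not pass (adjusted p = 0.162), but did so without MEF_ciHep replicate 2 (log2 fold change −2.22, adjusted p = 0.00277).

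For Sprr1b and Sprr2b the calls against pHep were not firm. Sprr1b was called lower (adjusted p = 0.0385), but all 24 counts came from pHep replicate 1, the other pHep library was at 0 like MEF_ciHep, and without pHep replicate 1 the difference was 0. DESeq2 gave an adjusted p of 0.431 for it. Sprr2b, admitted through MNF_ciHep, was at least 2.91-fold higher (adjusted p = 0.0315), and leaving out any 1 library of either group raised its adjusted p to between 0.0503 and 0.130. Krt5 and Trp63 had at most 9 counts in either group and did not pass.

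ESC_EPC differed from ESC in Sprr1a alone among the 9. Sprr1a had 149 counts in ESC_EPC and none in ESC, which made it at least 46.5-fold higher (adjusted p = 8.52e-04), where 33.2% of genes were called and 18.6% were called higher. Sfn was abundant in both and differed 1.08-fold (log2 fold change 0.11 ± 0.43, adjusted p = 0.876). The other 7 members had at most 3 counts in either group.

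**Figure D4:**
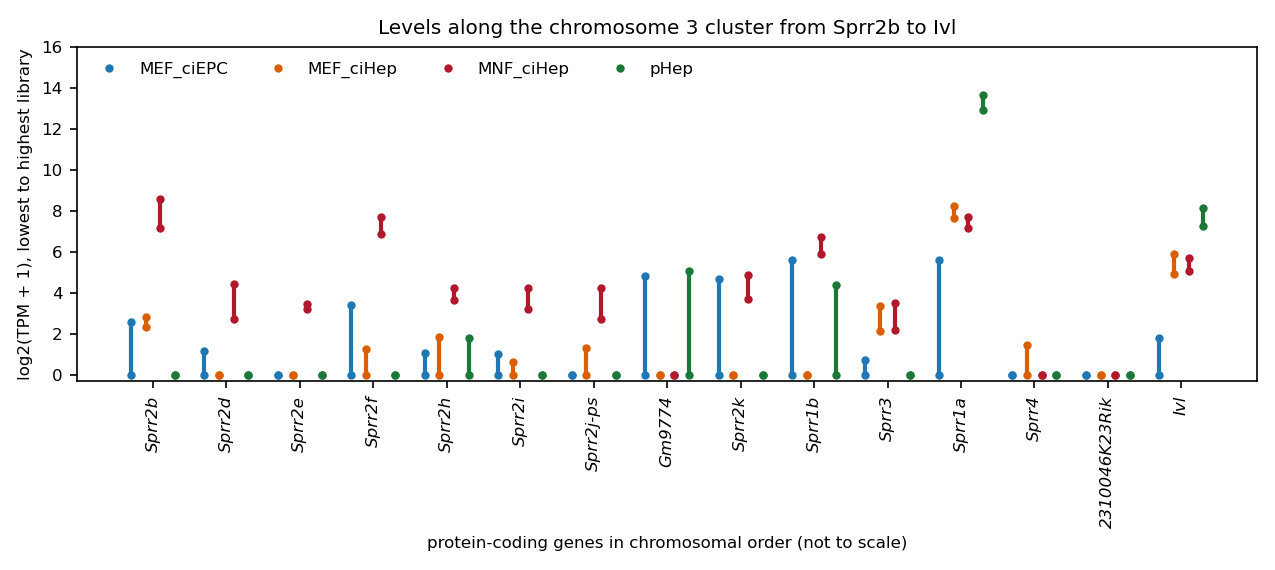
Lowest and highest level, as log2(TPM + 1) on the vertical axis, of the 15 protein-coding genes from Sprr2b to Ivl in chromosomal order (horizontal axis, not to scale) in MEF_ciEPC, MEF_ciHep, MNF_ciHep and pHep. MNF_ciHep show levels in 12 of the 15 genes, and pHep are high in Sprr1a and Ivl.

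The stretch of chromosome 3 from Sprr2b to Ivl is 257.1 kb long and holds 15 protein-coding genes, all in the tables. In MNF_ciHep, 12 of the 15 were at 1 TPM or more in every library. MEF_ciHep had 4 such genes, which were Sprr2b, Sprr3, Sprr1a and Ivl, and pHep had 2, which were Sprr1a and Ivl. MEF had 1 (Sprr2k, at 15.5 to 66.6 TPM), MNF_ciEPC 1 (Gm9774), ESC_EPC 1 (Sprr1a) and the other groups none. Groups differ in size, and counted in any 1 library instead, 10 of the genes reached 1 TPM in MEF_ciEPC, 8 in MEF_ciHep, 5 in pHep and 12 in MNF_ciHep. Sprr2f, another envelope precursor of the stretch, was at 115.1 and 206.8 TPM in MNF_ciHep, at most 1.43 in MEF_ciHep and 0 in pHep. Sprr2d, Sprr2e, Sprr2h, Sprr2i, Sprr2j-ps and Sprr2k were each between 5.58 and 28.4 TPM in MNF_ciHep and at most 2.58 TPM in MEF_ciHep. Sprr3 was at 3.51 and 10.4 TPM in MNF_ciHep and at 3.42 to 9.43 in MEF_ciHep.

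One Sprr2 paralog outside this stretch was far more abundant. Sprr2a2 was at 6925 to 17907 TPM in MEF_ciHep, 810.5 and 1510 in MNF_ciHep and 96.3 to 17793 in MEF_ciEPC. Of its 50-base stretches, 96.5% also occur in Sprr2a1, so its value cannot be assigned to 1 gene. It was listed at 43.5 to 112.9 TPM in the libraries of the other 6 groups, fibroblasts included.

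**Figure D5:**
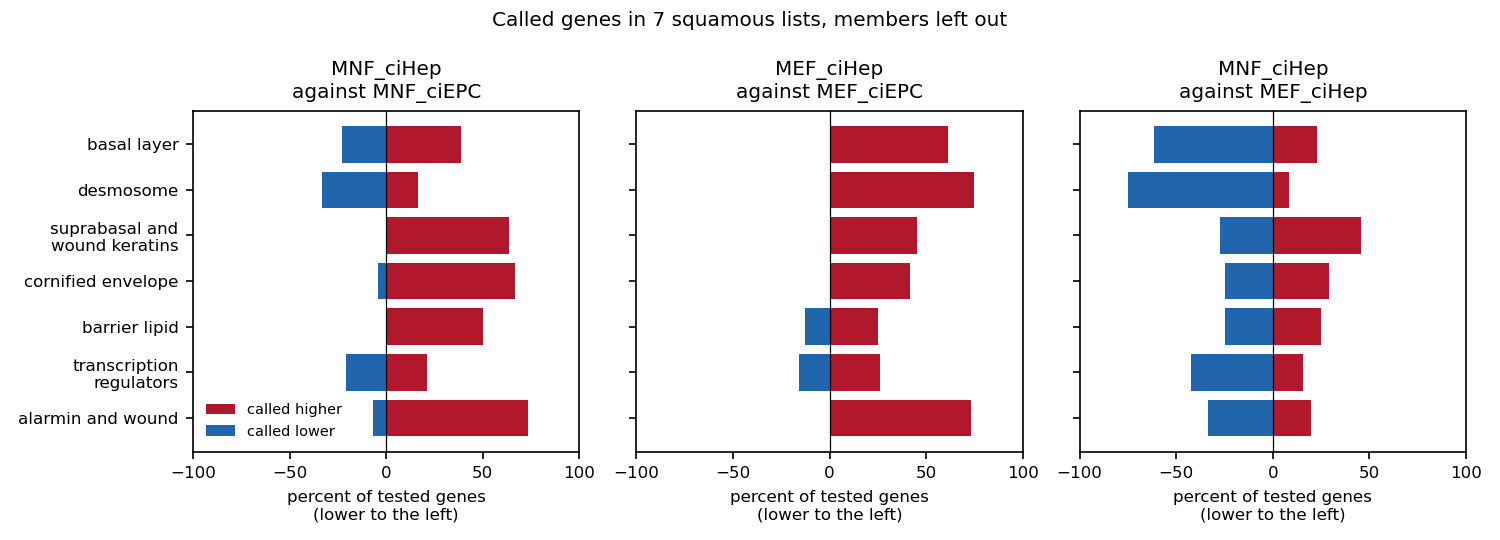
Percent of tested genes called higher (to the right) or lower (to the left) in 7 lists of squamous genes, members left out, in 3 comparisons. The suprabasal keratin, cornified envelope and alarmin lists lie mostly to the right in MNF_ciHep against MNF_ciEPC, and the basal and desmosome lists mostly to the left in MNF_ciHep against MEF_ciHep.

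Genes of 7 lists named for squamous epithelium, members left out, were called in both ciHep groups. In MNF_ciHep against MNF_ciEPC, 49 of 102 tested list genes rose and 13 fell, beside 19.5% and 10.8% of all genes. Their median log2 fold change was 2.47, or 2.21 with the 24 genes that had no counts in one group set to their bound, and 0.05 over all genes. In MEF_ciHep against MEF_ciEPC, 50 rose and 4 fell, beside 17.8% and 14.8% of all genes, with a median of 1.66 against −0.075 over all genes. Directly between MNF_ciHep and MEF_ciHep, 24 were higher and 41 lower in MNF_ciHep, beside 17.8% and 16.1% of all genes, with a median of −1.26. Against the starting MNF, 68 were higher and 7 lower in MNF_ciHep, beside 16.2% and 11.6% of all genes. The same shares of all genes stand beside the counts by list below, comparison by comparison. Without MNF_ciHep in the filter 93 of the 102 passed, so the others had entered through that group. They remain in the counts and medians over the 102 genes and in the counts by list below. In comparisons with MNF_ciHep those values, and the folds and adjusted p of single list genes below, are therefore descriptions only. A fit without that group called 48 of the 93 higher and 4 lower in MEF_ciHep against MEF_ciEPC. Fibroblast markers moved with the first of these comparisons: 7 of 8 rose from MNF_ciEPC to MNF_ciHep and none fell, while 5 of 8 were lower than in MNF. Their part in the list counts was not tested. A list of 11 simple epithelial keratins and junction genes, not particular to squamous cells, moved too. In MEF_ciHep against MEF_ciEPC 9 rose and 0 fell (median log2 fold change 2.84), and in MNF_ciHep against MNF_ciEPC 2 rose and 2 fell. Against MNF 10 were higher in MNF_ciHep, and all 11 were lower in MNF_ciHep than in MEF_ciHep. Whether the squamous lists moved apart from such a wider epithelial change was not tested.

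Envelope genes other than the members rose in 16 of 24 tested cases in MNF_ciHep against MNF_ciEPC, and 1, Casp14, fell. Sbsn, a suprabasal secreted protein, rose 62.0-fold (adjusted p = 4.86e-06), to 38.2 and 43.5 TPM, but was 1.73-fold above MNF and did not pass there (adjusted p = 0.136). Dmkn, another secreted protein of differentiating epidermis, reached 27.2 and 42.8 TPM from 3 counts in MNF_ciEPC (adjusted p = 1.98e-05). Against MNF, 15 of the 24 were higher and 1 lower. In MEF_ciHep against MEF_ciEPC, 10 of 24 rose and none fell. Sbsn rose 40.6-fold there (adjusted p = 3.40e-07) and Scel, which encodes the envelope precursor sciellin, 173-fold (adjusted p = 1.43e-05). Filaggrin, the product of Flg and a marker of the terminal granular layer, was at 0 in every ciHep library and was singled out after its values were seen, as were Krt1 and Krt2 below.

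Keratins of suprabasal, wounded and mucosal epithelium rose in 7 of 11 tested cases in MNF_ciHep against MNF_ciEPC and none fell. Krt13, a keratin of mucosal squamous epithelium, reached 61.3 and 65.3 TPM from 2 counts in MNF_ciEPC (adjusted p = 1.98e-04). The wound keratins Krt17, Krt16 and Krt6b, without counts in MNF_ciEPC, were at least 31.3-fold, 40.9-fold and 93.1-fold higher, as a description (adjusted p = 4.91e-04, 0.00134 and 0.00143). Of their 50-base stretches, 50.1% in Krt6b and 37.6% in Krt16 occur in other genes, so these values cannot be assigned to single genes. Krt1, the keratin of differentiating epidermis, was at 0 and 0.49 TPM and Krt2 at 0. In MEF_ciHep against MEF_ciEPC, 5 of 11 rose and none fell, led by Krt80, which rose 11.7-fold (adjusted p = 3.81e-04).

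Basal and hemidesmosome genes, which anchor basal cells to the matrix, divided in MNF_ciHep against MNF_ciEPC, where 5 of 13 rose (Egfr, Bcam, Krt15, Cldn1 and Col17a1) and 3 fell. Krt15, a keratin of basal cells, reached 21.7 and 34.8 TPM (adjusted p = 4.83e-04), and Egfr, the EGF receptor, rose 12.8-fold (adjusted p = 1.49e-06). Against the starting MNF, however, Egfr was 4.22-fold lower (adjusted p = 6.56e-05), and 6 of the 13 basal genes were higher and 3 lower. In MEF_ciHep, 8 of 13 rose against MEF_ciEPC and none fell. Desmosome genes, the junctions that hold squamous cells together, were counted in the same way. In MNF_ciHep 2 of 12 rose (Pkp1 and Evpl) and 4 fell (Pkp3, Pkp2, Jup and Dsg2) against MNF_ciEPC, with Pkp3 4.87-fold lower (adjusted p = 7.47e-05). Of all genes, 19.5% rose and 10.8% fell in that comparison, so the share that rose was near the background. In MEF_ciHep 9 of 12 rose against MEF_ciEPC and none fell, with Dsp, which encodes desmoplakin, 10.1-fold higher (adjusted p = 2.23e-08). Between the ciHep groups 9 of 12 desmosome genes were lower and 1, Pkp1, was higher in MNF_ciHep.

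Transcription regulators of stratified epithelium rose in 4 (Hes1, Notch1, Ehf and Tfap2a) and fell in 4 of 19 tested cases in MNF_ciHep against MNF_ciEPC, where 19.5% of all genes rose and 10.8% fell, so the share that rose was near the background. Grhl2, a regulator of epithelial differentiation, was 6.43-fold lower than in MNF_ciEPC (adjusted p = 2.73e-04). Against MNF all 19 tested regulators were higher in MNF_ciHep, beside 16.2% of all genes. In MEF_ciHep against MEF_ciEPC, 5 of 19 rose (Grhl1, Ehf, Grhl2, Tfap2c and Tfap2a) and 3 fell (Pitx1, Hes1 and Klf5), beside 17.8% and 14.8% of all genes. Barrier lipid genes rose in 4 of 8 tested cases and none fell in MNF_ciHep, with Fabp5 4.76-fold higher (adjusted p = 1.02e-05) but 1.89-fold above MNF and not called there. In MEF_ciHep Fabp5 and Cers3 rose and Elovl4 fell.

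Epidermal alarmin and wound response genes rose in 11 of 15 tested cases in each step, with 1 fall, of Tgfa, in MNF_ciHep against MNF_ciEPC and none in MEF_ciHep against MEF_ciEPC. Lcn2, a secreted iron-siderophore binder, was at least 1276-fold higher in MNF_ciHep (adjusted p = 1.69e-05). Ereg, a ligand of the EGF receptor, was at least 481-fold higher (adjusted p = 5.34e-04), and Slpi, a protease inhibitor of epithelial surfaces, reached 202 and 373.8 TPM from 1 count (adjusted p = 2.01e-04). In MEF_ciHep, Anxa8 rose 52.9-fold (adjusted p = 1.83e-06) and Plaur, the urokinase receptor, 12.4-fold (adjusted p = 3.47e-06).

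Relatives of Ly6d rose with it. Of 11 tested Ly6 and uPAR domain genes, 8 rose and none fell in each step, beside 19.5% of all genes that rose in MNF_ciHep and 17.8% in MEF_ciHep. Ly6e rose 162-fold and Ly6a 39.5-fold in MNF_ciHep against MNF_ciEPC (adjusted p = 7.58e-07 and 2.04e-06). Against MNF, Ly6e was 3.75-fold higher (adjusted p = 0.00435) and Ly6a did not pass (adjusted p = 0.115). In MEF_ciHep against MEF_ciEPC, Psca rose 372-fold (adjusted p = 3.41e-06) and Ly6a 13.9-fold (adjusted p = 5.12e-06). A further list of 12 tested genes held relatives of Trp63 and Sfn in the p53 and 14-3-3 families. It also held Mdm2, Ccng1, Gadd45a and Cdkn1a of the p53 pathway, which are not relatives. Most did not pass, with 2 of 12 higher in MNF_ciHep and 2 higher and 1 lower, Trp73, in MEF_ciHep. The shares that rose were near the background, at 19.5% of all genes in MNF_ciHep and 17.8% in MEF_ciHep. The 2 that rose were the same in each step: Cdkn1a, the p53 target that encodes p21, rose 3.16-fold in MNF_ciHep and 2.62-fold in MEF_ciHep (adjusted p = 1.94e-04 and 3.14e-04), and Ywhag, a 14-3-3 gene, 2.14-fold and 2.10-fold (adjusted p = 0.00218 and 0.00114). Neither was called in MNF_ciHep against MNF.

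Of the AP-1 subunit genes, all 8 tested rose in MNF_ciHep against MNF_ciEPC, beside 19.5% of all genes. They were led by Fosl1, which was 128-fold higher (adjusted p = 1.13e-04), Junb at 7.70-fold (adjusted p = 4.06e-04) and Jun at 6.79-fold (adjusted p = 6.88e-04). In MEF_ciHep against MEF_ciEPC, Fosl1 rose 4.62-fold (adjusted p = 0.0240), Jun fell 4.89-fold (adjusted p = 7.64e-04), Atf3 and Fosb fell too, and 4 did not pass. Of all genes, 17.8% rose and 14.8% fell there. The 9 AP-1 genes listed summed to 4457 and 5266 TPM in MNF_ciHep, 657 to 823 in MEF_ciHep, 478 and 1005 in pHep and 139.5 to 2732 in MEF_ciEPC, the last in series 1 passage 2. By highest library, Sprr1b, Sprr2b, Ly6d, Trp63 and Krt5 peaked in MNF_ciHep, Sprr1a and Ivl in pHep, and Krt14 and Sfn in MEF_ciHep. The part of AP-1 in the member levels was not tested.

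Markers of other cells that could hold squamous transcripts were set beside the members. The 7 keratinocyte markers that are no members summed to 40.1 and 52.7 TPM in MNF_ciHep, 18.5 to 26.3 in MEF_ciHep and 2.45 and 4.47 in pHep. Of 5 tested, 2 rose in MNF_ciHep against MNF_ciEPC and none was called in MEF_ciHep against MEF_ciEPC. In pHep, where Sprr1a was highest, the member Krt5 was at 0.30 and 0.90 TPM and Krt14 at 0.60 and 0. Urothelium markers, 5 of 5 in the tables, summed to 179.6 to 367 TPM in MEF_ciHep, 118.4 and 262.5 in pHep and 12.7 and 20.4 in MNF_ciHep, and mesothelium markers to 902 to 1435, 76.5 and 93.0, and at most 14.9 TPM. Of the urothelium genes, Upk1b was at 71.4 to 146 TPM in MEF_ciHep and 0 in pHep, and Upk3a was at 0.60 or less in both. Leukocyte and Langerhans cell markers summed to 42.8 and 129.1 TPM in MNF_ciHep, nearly all from Cd68, with Ptprc at 0 and 0.13, Adgre1 and Cd207 at 0. In pHep they summed to 77.3 and 105.5 TPM, with Ptprc at 0.14 and 3.49, and in MEF_ciHep to 12.1 to 30.4 TPM. All 3 tested leukocyte markers were called lower in MEF_ciHep than in pHep, beside 10.8% of all genes. Sprr1a and Ivl were lower there too, while Krt14 and Sfn were higher. Whether any such cells contributed to the members was not tested.

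Over the 28 libraries the members fell into loose groups by likeness. On the log2(TPM + 1) scale, Pearson's r was 0.92 for Sprr1a with Ivl, 0.88 for Sprr1b with Krt5, 0.81 for Sprr2b with Krt5 and 0.65 for Krt5 with Krt14. Sprr1a and Sprr1b, both in the chromosome 3 stretch, had an r of 0.48. Sfn reached 0.42 at most, with Krt14, and its r with the 5 members Sprr1b, Trp63, Ly6d, Krt5 and Ivl was between 0.00 and 0.10. These values describe libraries that share groups and passages, and carry no test.

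The genes most like the members' mean over the 28 libraries, among 14372 genes with at least 10 TPM somewhere, were led by Areg, which encodes the EGF receptor ligand amphiregulin, with an r of 0.94. Its median was 98.2 TPM in MNF_ciHep, 14.8 in MEF_ciHep, 18.0 in pHep and at most 2.02 in any other group. Aspg followed with an r of 0.90 and Lcn2 with 0.89. Chst13 and the metallothionein Mt4 both had 0.88, and Gm38271, Aldh1a7, Gm20186, Por and Gm26809 followed with values from 0.845 to 0.856. Lcn2 had a median of 636 TPM in MNF_ciHep, 111.5 in MEF_ciHep and 3702 in pHep.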

How the data were processed

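RNA of 28 libraries had been sequenced and, per the submitters' processing notes, quantified with RSEM 1.2.4 on mm10; the aligner and annotation are not given in the sources used here. The values used were the authors' deposited expected counts (estimated read counts per gene, not normalised) and deposited TPM. The 9 genes were matched by name in tables of 31673 genes. Expected counts were rounded. The 10 MEF_ciEPC libraries were summed within their numbered series, read from the titles as 2 culture lines, so that 20 samples in 9 groups were fitted with edgeR 4.0.16 (R 4.3.3): filterByExpr with a minimum count of 10, TMM scaling and the quasi-likelihood test, with Benjamini-Hochberg adjustment over 16061 genes. A call needed an adjusted p under 0.05 and a 2-fold change. The test was tried on simulated data first. A fold against a group without counts was a bound at 3 counts over the group. With 1 to 3 counts a ratio with an exact (Clopper-Pearson) 95% interval was given, and floors and intervals cover counting error only. TPM were plotted and correlated as log2(TPM + 1).

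The members, the gene lists and the motif were chosen with earlier results of these data known. Named list genes were up to 4 per list with the smallest adjusted p among those called in MNF_ciHep against MNF_ciEPC and up to 2 in MEF_ciHep against MEF_ciEPC, with paralogs at a member's locus and the 10 genes most correlated with the members' mean; other list genes were named after their values were seen, and some are not reported here. Same-numbered samples of different groups did not deviate together (73 pairs, 0 with a correlation above 0.1), so the numbers were not taken as pairs. Alternatives were RLE scaling, DESeq2 1.42.0, limma 3.58.1 on log2(TPM + 1), no filter, a minimum count of 50, a replicate block, unsummed MEF_ciEPC libraries and each sample left out. Leaving out MEF_ciEPC series 1 passage 2, and a filter and fit without MNF_ciHep, were added after seeing the data.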

Additional observations from a re-analysis of the deposited data

Results flagged for a closer look

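Among the 10 MEF_ciEPC libraries, 7 of the 9 genes had 1 library far above the others, by Dixon's test at its 95% critical value. The usual rate of 1 such gap in 20 groups assumes normally distributed values and does not hold here. Sprr1b was above 0 in 2 of the 10 libraries, and Sprr2b, Krt5, Krt14 and Ivl in 3 each. The genes also share their libraries. Series 1 passage 2 was that library for 5 genes: Sprr1a at 48.05 TPM, Sprr1b at 47.56 TPM, Krt5 at 8.71 TPM, Krt14 at 6.14 TPM and Ivl at 2.49 TPM. Sprr2b was highest in series 2 passage 5, at 4.92 TPM. Sfn was highest in series 2 passage 22, at 25.69 TPM, the library with 1908 TPM of Pou5f1. The part of fibroblast or stem cell markers in these values was not tested.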

How the results depend on the processing

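Over all alternatives, 5 or 6 members were called in MEF_ciHep against MEF and 1 in ESC_EPC against ESC. The count was 5 to 7 in MEF_ciHep against MEF_ciEPC and 4 to 6 against pHep. In MEF_ciEPC against MEF it was 1, and 2 under RLE scaling, without series 2 passage 22, without series 1 passage 2 and with 10 separate libraries, where Trp63 was added, a gene that passed the filter only through MNF_ciHep; leaving out 1 sample gave 1 to 3. The number of squamous list genes called stayed within 1.5 times its first value throughout. The member counts above take in Sprr2b, Trp63 and Krt5 wherever called, which passed the filter only through MNF_ciHep. Of all genes, 33.4% were called in MEF_ciEPC against MEF and 33.2% in ESC_EPC against ESC. For MEF_ciHep the shares were 32.7% against MEF_ciEPC, 42.2% against MEF and 25.9% against pHep. Fitted without the MNF_ciHep group, 6 members passed the filter. Then 1, 5, 5, 5 and 1 were called in MEF_ciEPC against MEF, MEF_ciHep against MEF_ciEPC, MEF and pHep, and ESC_EPC against ESC. With the replicate block, 4 members were called against pHep, 6 against MEF_ciEPC and 50 squamous list genes in MEF_ciHep against MEF_ciEPC.

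Signs changed only for values that did not pass the test, apart from Sprr1b against pHep; the cause was not tested. Krt5 against pHep was −0.34 with DESeq2, −0.24 with limma and −0.14 with separate libraries. Limma gave 0.00916 for Trp63 against pHep and 0.17 for Ly6d in ESC_EPC. The block gave 0.0525 for Krt5 in MEF_ciHep against MEF_ciEPC and −0.15 for Sprr2b in ESC_EPC. Ivl in MEF_ciEPC against MEF was 0.00131 without series 2 passage 22. Without series 1 passage 2, Krt5 was −0.76 in MEF_ciEPC against MEF and 1.49 in MEF_ciHep against MEF_ciEPC.

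Leaving out 1 sample moved these log2 fold changes to 0 or across it. In MEF_ciEPC against MEF, Ivl ranged from −3.68 to 1.27, Krt14 from −5.32 to 1.90, Sprr1b from −1.96 to 6.20, Sprr1a from −1.99 to 2.70 and Krt5 from −3.91 to 5.27. In MEF_ciHep against MEF, Trp63 ranged from −2.42 to 0.24, Sprr1b from −2.60 to 0 and Krt5 from −4.11 to 4.87. Against MEF_ciEPC, Sprr1b ranged from −7.03 to 0 and Krt5 from −5.25 to 4.66. Against pHep, Trp63 ranged from −1.34 to 3.02, Krt5 from −4.81 to 0.71 and Sprr1b from −8.64 to 0. In ESC_EPC against ESC, Ly6d ranged from −2.46 to 2.38, Krt14 and Sprr1b from 0 to 3.19 and Sfn from −0.0673 to 0.33. Trp63, Krt5, Sprr1b and Sprr2b rested on few counts in most groups, which limits their precision. Where a group was left with 1 library, it was assumed to vary like the others.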
